A study of Glycine max with 8 samples.

Results

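FLAG-SNAP4 is SNAP4, a NAC-family transcription factor (TF) of soybean, joined to a FLAG tag, and the sites described here are the strongest places at which chromatin immunoprecipitation followed by sequencing (ChIP-seq) recovered it. The 2 FLAG-SNAP4 libraries of the 8 in the series were set against the 6 libraries of FLAG-SNAP1, FLAG-SNAP2 and FLAG-SNAP3. Peaks were ranked within each library by the deposited fold enrichment, and the 100, 500 and 1000 highest were taken from each. These are 1.70, 8.49 and 17.0% of the 5888 peaks of FLAG-SNAP4 replicate 1 and 1.46, 7.29 and 14.6% of the 6856 peaks of replicate 2. The other libraries held between 3628 and 9332 peaks.

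All 8 libraries came from transgenic hairy roots of soybean with nodules, raised with Agrobacterium strain K599, in which the soybean pM4 promoter drove the coding sequence of SNAP1, SNAP2, SNAP3 or SNAP4 with a FLAG tag, with 2 biological replicates for each TF. The study's methods describe such tagged lines, whereas the archive labels call each genotype a mutant of the SNAP gene. The groups used here follow the TF and replicate in the sample titles. The host's own copies of the SNAP genes are not mentioned, the antibody is directed at the tag, and the cells in which the promoter works are not given. Root tissue with nodules was fixed as a whole, so root and nodule cells cannot be told apart. No nitrogen level is named for these roots, although the study introduces the experiment as a search for targets in nodules given nitrogen. No library without a tag and no input library was analysed here, so no background measured the same way stands beside the values.

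NAC TFs are a large plant family that bind DNA through a conserved domain near the amino terminus and act in organ development, stress responses and senescence. Legume nodules house nitrogen-fixing bacteria, and nitrate in the soil lowers their activity and hastens their ageing. tRNA genes, which recur often in the lists below, are short genes transcribed by RNA polymerase III from promoter elements inside the gene.

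tRNA genes were rare among the strongest FLAG-SNAP4 peaks and common among those of the other TFs. A peak was placed at a tRNA gene when its summit lay within 200 bp of 1 of the 709 tRNA genes of the annotation. Of the 100 strongest peaks, 3 and 5 were at tRNA genes in the FLAG-SNAP4 replicates, which are shares of 3% (95% Wilson interval 1.03 to 8.45%) and 5% (2.15 to 11.2%). The same count was 29 and 31 in FLAG-SNAP1, 41 and 40 in FLAG-SNAP2 and 37 and 41 in FLAG-SNAP3. Both FLAG-SNAP4 libraries lay below all 6 others. The intervals cover counting error only, as neighbouring peaks and copies of one gene family are not independent.

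The gap narrowed with more peaks taken, without overlap of the groups at any of the 3 limits. Among the 500 strongest peaks, 34.4 and 44.0% of the FLAG-SNAP4 peaks were at tRNA genes, against 54.0 to 65.2% in the other libraries. Among the 1000 strongest, the shares were 29.0 and 40.8% against 42.6 to 51.1%. The share of FLAG-SNAP4 minus that of the others was −32.5, −21.6 and −13.3 percentage points, with means of 4.00% ± 1.41, 39.2% ± 6.79 and 34.9% ± 8.34 (SD, n = 2) for FLAG-SNAP4. The exact permutation test over libraries gave p = 0.0714 at each limit (two-sided), and p = 0.0857 after adjustment over the 12 tests of 4 shares and 3 limits. That is the smallest p that 2 libraries of 8 can give, so the test cannot reach 0.05. With the 4 TFs as units no p below 0.25 is possible.

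**Figure D1:**
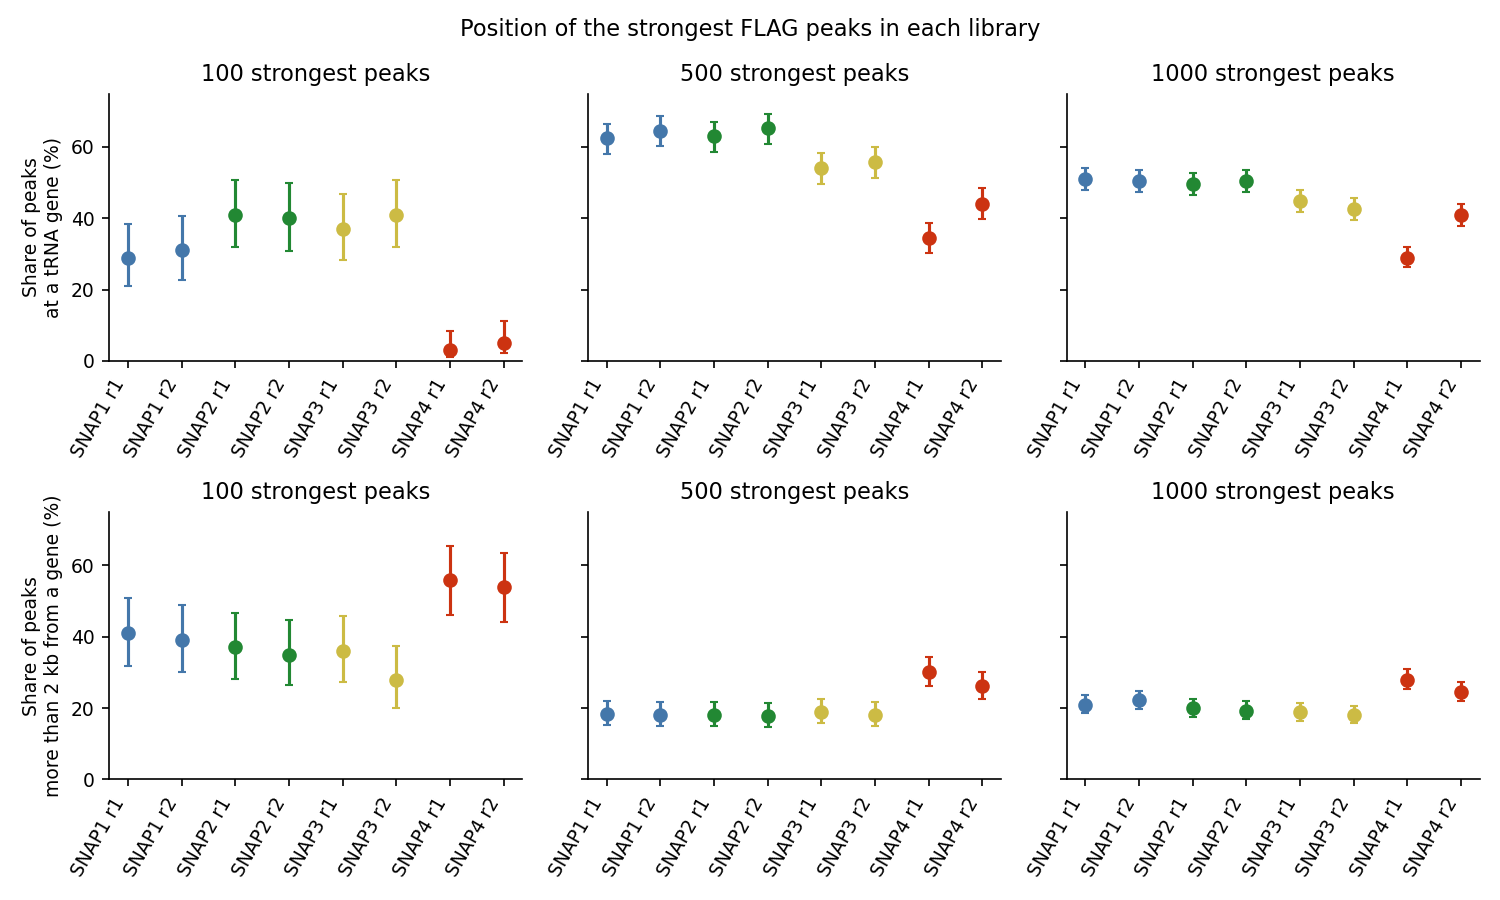
Share of the 100, 500 and 1000 strongest peaks of each library (x axis, r1 and r2 are the replicates) that lay at a tRNA gene (top row) or more than 2 kb from a gene (bottom row), in percent, with 95% Wilson intervals as bars. At all 3 limits both FLAG-SNAP4 points (red) lie below the other 6 for tRNA genes and above them for peaks far from genes.

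The tRNA genes were not missing from FLAG-SNAP4. Over all ranks, 553 and 627 FLAG-SNAP4 peaks were at tRNA genes, 9.39 and 9.15% of all peaks. The other libraries had 557 to 663 such peaks, out of differing totals. As a share of all peaks, this was at most 8.28% in FLAG-SNAP1 and FLAG-SNAP2, below both FLAG-SNAP4 libraries. In the FLAG-SNAP3 replicates it was 9.38 and 15.4%. The FLAG-SNAP4 peaks at tRNA genes stood lower in the ranking. The 10th tRNA peak had rank 155 and 116 in the FLAG-SNAP4 replicates and rank 33 to 59 in the others, and the 100th had rank 361 and 291 against 179 to 206. Their median fold enrichment was 5.13 and 6.19 in FLAG-SNAP4 and 7.04 to 8.17 elsewhere.

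Read by rank, both FLAG-SNAP4 libraries lay below all others in every range from rank 26 to 300. From rank 51 to 100, 2 and 8% of the FLAG-SNAP4 peaks were at tRNA genes, against 44 to 56% in the other libraries. From rank 101 to 200 it was 19 and 45% against 61 to 77%. From rank 201 to 300 it was 49 and 56% against 63 to 77%. From rank 301 to 400 only replicate 1 was below, with 45 and 61% against 51 to 75%. From rank 401 to 500 the FLAG-SNAP4 values, 56 and 53%, lay within the range of the others, 45 to 67%. From rank 501 to 750 only replicate 1 was below, at 24.8%, with 46.8% in replicate 2 and 37.2 to 51.2% elsewhere. The 25 strongest peaks held few tRNA genes in any library, with 8 and 0% in FLAG-SNAP4 and 4 to 24% elsewhere.

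**Figure D2:**
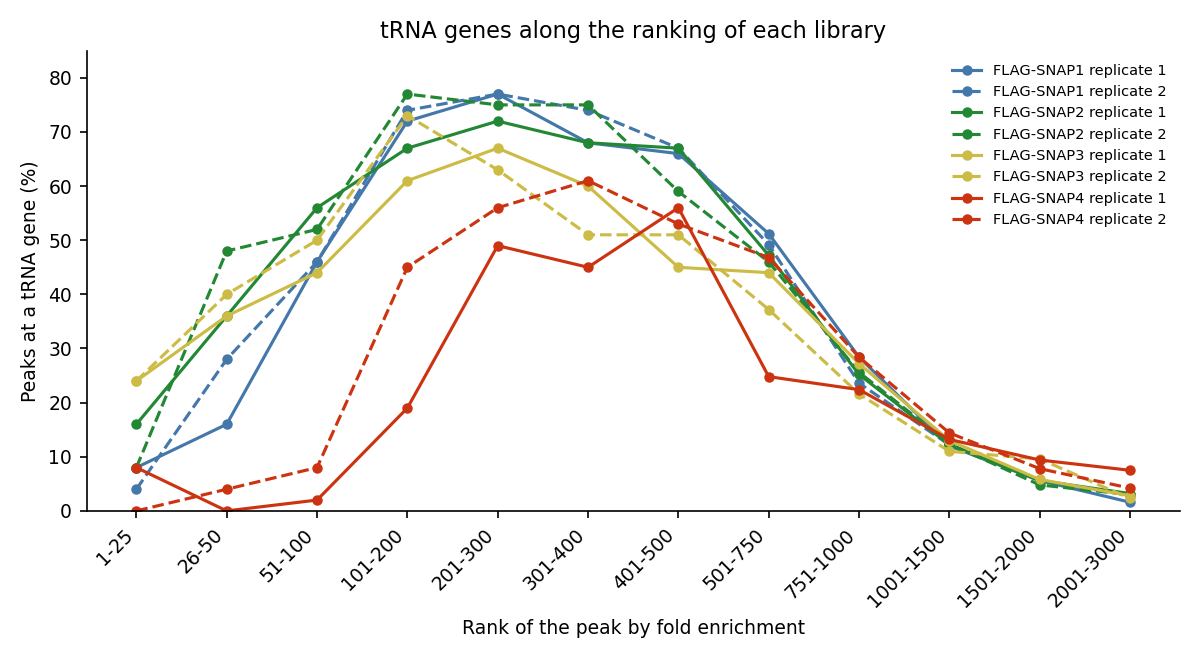
Percent of peaks at a tRNA gene (y axis) in successive ranges of rank (x axis, rank 1 is the strongest) for each of the 8 libraries, with replicate 1 as a solid and replicate 2 as a broken line. The FLAG-SNAP4 lines (red) run below all others from rank 26 to rank 300. Replicate 1 stays below them to rank 400 and is below them again from rank 501 to 750.

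There were 99 sites at tRNA genes that stood among the 100 strongest of at least 1 of the other 6 libraries. A site is a run of peaks that overlap by at least 1 bp across libraries, and it counts as at a tRNA gene when the summit of any of its peaks does. Both FLAG-SNAP4 libraries had a peak at all 99, with a median rank of 328 and 253, and 4 and 5 of these peaks were among their 100 strongest. Of the 108 sites not at tRNA genes that met the same rule, 104 and 107 had a FLAG-SNAP4 peak, with a median rank of 69 and 73, and 63 and 66 were among the 100 strongest. The choice of these sites favours the other 6 libraries, so only the gap between the tRNA sites and the rest is to be read from these ranks, and it was not tested.

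The 5 tRNA sites that FLAG-SNAP4 did hold among its 100 strongest peaks are named here after their values were seen. By the rule for sites 4 of them were among the 100 strongest of replicate 1, against 3 peaks by their own summits, as the summit at TRNAM-CAU lay 317 bp from the gene in that replicate. The strongest was a TRNAF-GAA gene, for phenylalanine, on chromosome 11 (29378644 to 29379130, Wm82 a4.v1), with a fold enrichment of 16.9 and 15.8 in FLAG-SNAP4. In FLAG-SNAP1 it was 15.5 and 11.7, in FLAG-SNAP2 12.3 and 7.70, and in FLAG-SNAP3 13.96 and 11.3, so the FLAG-SNAP4 values were above every other. A TRNAP-UGG gene for proline on chromosome 17 had 15.9 and 12.7 in FLAG-SNAP4 and 9.70 to 16.6 elsewhere, and a TRNAM-CAU gene for methionine on chromosome 20 had 12.2 and 13.0 against 9.67 to 11.99. At the TRNAR-CCU gene for arginine on chromosome 12, among the 100 strongest of all 8 libraries, FLAG-SNAP4 had 11.1 and 12.3 and the others had more, 14.7 to 15.9. The last, a TRNAK-UUU gene for lysine on chromosome 11, ranked among the 100 strongest in replicate 2 alone, with 9.40 and 12.6. Such symbols stand for many near-identical gene copies, so a peak is told from those of other copies by its position, and the authors kept only uniquely mapped reads.

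The lower counts extended over most amino acids. Grouped by the amino acid in the gene symbol, 14 of 20 groups had fewer genes with a peak among the 500 strongest in both FLAG-SNAP4 libraries than in any other library. The glycine group, with 56 genes, had 14 and 20 such genes in FLAG-SNAP4 and 21 to 32 in the others. The tryptophan group, with 19 genes, had 0 and 2 against 3 to 7. The asparagine group was among the 6 in which the libraries overlapped, with 7 and 7 of 23 genes against 5 to 11.

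Peaks far from genes were more common at the top of the FLAG-SNAP4 lists. The midpoint lay more than 2 kb from every annotated gene for 56 and 54 of the 100 strongest FLAG-SNAP4 peaks, and for 41, 39, 37, 35, 36 and 28 in the libraries of FLAG-SNAP1, FLAG-SNAP2 and FLAG-SNAP3, each TF with replicate 1 first. The shares were 30.2 and 26.2% against 17.8 to 19.0% among the 500 strongest, and 28 and 24.6% against 18.1 to 22.2% among the 1000 strongest. The mean differences were 19, 10 and 6.42 percentage points, without overlap of the groups, each with an exact permutation p = 0.0714 (adjusted p = 0.0857). Here too the high share among the 100 strongest was known beforehand, so these p-values are no separate support for it. The far FLAG-SNAP4 peaks among the 100 strongest had a median distance of 12511.5 and 12504 bp to the nearest gene, against 6009.5 to 8310 bp in the other libraries. More than 10 kb away were 33 and 31 of them, against 7 to 16.

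Among peaks away from tRNA genes the groups overlapped at 2 kb, and at 10 kb they were apart for 100 peaks only. A tRNA gene is itself a gene, so a peak at one cannot be far from genes, and a list with fewer tRNA peaks has room for more far ones. Among the peaks of the top 100 that were not at tRNA genes, 57.7 and 56.8% of the FLAG-SNAP4 peaks were far from genes, within the 47.5 to 62.7% of the other libraries. More than 10 kb from genes were 34.0 and 32.6% of them, above the 11.9 to 25.4% of the others, a limit chosen after the data had been seen (exact permutation p = 0.0714). At 10 kb the groups overlapped for 500 and 1000 peaks. In the top 500 the shares more than 2 kb from genes were 46.0 and 46.8% against 40.7 to 51.1%, and in the top 1000 39.4 and 41.6% against 31.5 to 44.8%. When tRNA peaks were left out before ranking, the difference among the 100 strongest was 2.67 points in place of 19.0, and the groups overlapped at all 3 limits.

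Gene bodies held fewer of the strongest FLAG-SNAP4 peaks, and here too the difference shrank without tRNA peaks. Midpoints inside a gene of any type made up 21 and 20% of the 100 strongest peaks in FLAG-SNAP4 and 33 to 39% in the others, 34.8 and 37.0% against 40.2 to 46.0% of the 500 strongest, and 35.6 and 36.7% against 37.0 to 47.5% of the 1000 strongest (exact permutation p = 0.0714, adjusted p = 0.0857, at each limit). Without tRNA peaks in the ranking the difference among the 100 strongest shrank from −14.8 to −0.17 points. With protein-coding genes alone as the annotation it turned, to 15 and 12% in FLAG-SNAP4 against 6 to 13%, a difference of 3.83 points with overlap of the groups.

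The flanks, within 1 kb outside a gene on either side, held 17 and 16% of the 100 strongest FLAG-SNAP4 peaks and 19 to 31% of those of the others, a difference of −6 points (exact permutation p = 0.0714, adjusted p = 0.0857). Among the 500 strongest the values, 29.6 and 31.0% against 29.8 to 38.0%, overlapped (exact permutation p = 0.143, adjusted p = 0.156). Among the 1000 strongest they were 30.8 and 33.2% against 29.0 to 37.1% (exact permutation p = 0.429, adjusted p = 0.429). Around protein-coding genes alone the flanks held 10 and 10% against 12 to 22% of the 100 strongest, 24.0 and 25.2% against 29.6 to 33.4% of the 500 strongest and 27.4 and 27.8% against 29.3 to 31.2% of the 1000 strongest, so that the groups did not overlap at any limit. The annotation used gives no strand, so promoter and 3′ flanks were not separated.

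The surroundings of the 100 strongest peaks were poor in genes. The median number of genes within 250 kb on either side was 20 and 21 for the 100 strongest FLAG-SNAP4 peaks and 30 to 43 in the other libraries, and 18.2 and 16.3% against 4.04 to 10.2% of the peaks had fewer than 10 genes in that window. Among those peaks not at tRNA genes the medians were 20 in both FLAG-SNAP4 libraries and 22 to 38 in the others. For peaks not at tRNA genes the groups overlapped lower down. The medians were 29.5 and 33 against 25 to 41 in the top 500, and 39 and 38 against 38 to 45 in the top 1000. No test was run on these counts.

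The enrichment of FLAG-SNAP4 fell faster along the ranking than that of the other TFs. At rank 100 it was 10.9 and 11.6, within the range of the others, 10.1 to 12.2. At rank 500 it was 5.83 and 6.76 and at rank 1000 5.06 and 5.61, below all others, which had 7.07 to 8.24 and 5.86 to 6.61. The peak just outside each limit had nearly the same value, for example 10.9 and 11.6 at rank 101. The median width of the 100 strongest was 408.5 and 417.5 bp in FLAG-SNAP4, 402.5 and 419 bp in FLAG-SNAP3 and 485.5 to 493 bp in FLAG-SNAP1 and FLAG-SNAP2.

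With all peaks ranked, the 2 FLAG-SNAP4 replicates shared more of their 100 strongest peaks than any other pair of libraries. Overlap was measured by a Jaccard index, the shared peaks over all peaks of the pair, with an overlap of at least 1 bp. Of the 100 strongest, 89 of each replicate overlapped one of the other, an index of 0.80, and the replicate pairs of the other TFs had 0.47 to 0.67. The lead was lost down the ranking. With 500 peaks the FLAG-SNAP4 pair had 0.53 against 0.52 to 0.69, and with 1000 peaks 0.42 against 0.53 to 0.62, the lowest of the 4 replicate pairs. With tRNA peaks left out before ranking, the FLAG-SNAP4 and FLAG-SNAP1 pairs had the same index of 0.82 for 100 peaks. For 500 and 1000 peaks the FLAG-SNAP4 pair then had 0.40 and 0.30, within the 0.35 to 0.46 and 0.29 to 0.41 of the other pairs.

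With all peaks ranked, the FLAG-SNAP4 lists overlapped less on average with those of the other TFs than these did with each other. With tRNA peaks left out this held for 100 peaks only. With 100 peaks the mean index of the 12 pairs of a FLAG-SNAP4 library and another was 0.36 (0.26 to 0.47), and that of the 12 pairs between 2 of the other TFs was 0.46 (0.36 to 0.60). FLAG-SNAP1 was the nearest, with 0.43 to 0.47, then FLAG-SNAP2 with 0.33 to 0.35 and FLAG-SNAP3 with 0.26 to 0.32, and these 3 ranges did not overlap. Among the other TFs, FLAG-SNAP1 with FLAG-SNAP2 had 0.55 to 0.60. FLAG-SNAP3 had 0.36 to 0.44 with FLAG-SNAP1 and 0.38 to 0.42 with FLAG-SNAP2, so low overlap was not particular to FLAG-SNAP4. With tRNA peaks left out before ranking, the means were 0.48 and 0.52 for 100 peaks, 0.28 and 0.27 for 500 and 0.24 and 0.23 for 1000, so that the order turned at the last 2 limits. The pairs share libraries, so the indices are a description with no test.

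**Figure D3:**
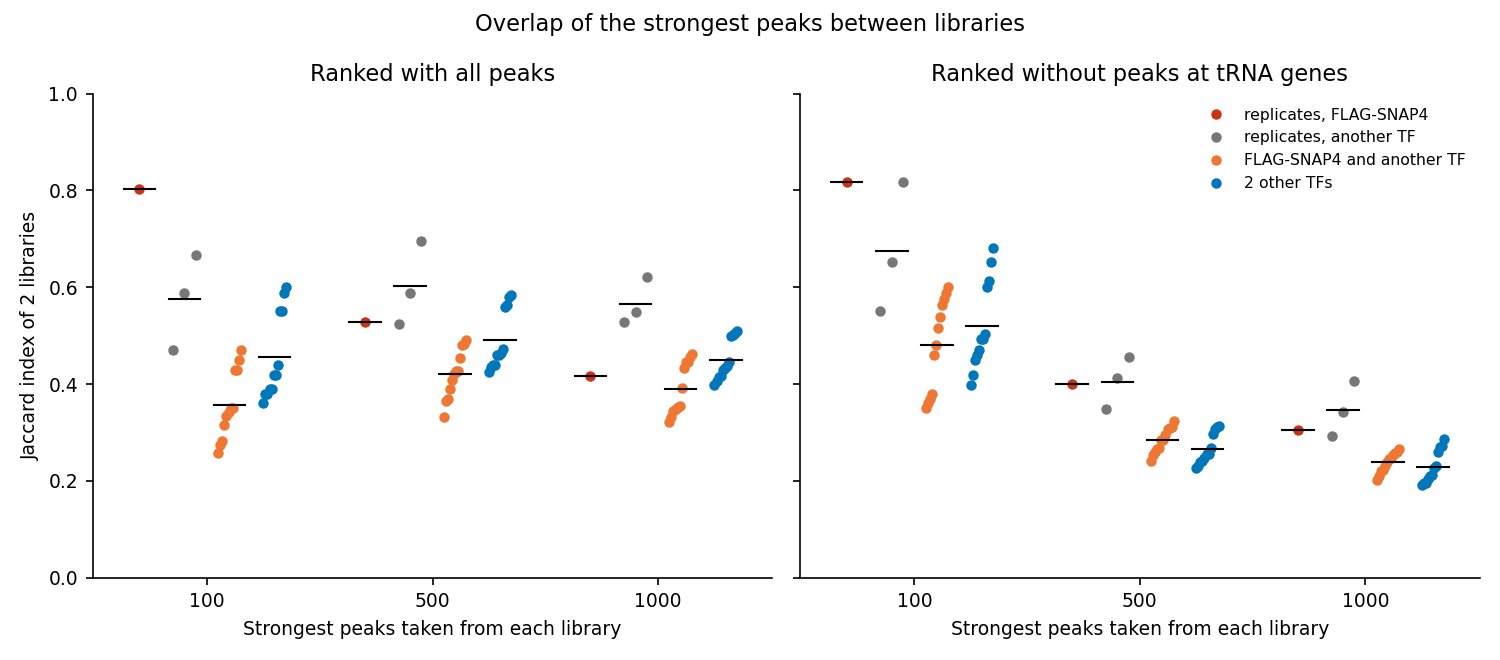
Jaccard index (y axis) of every pair of libraries for the 100, 500 and 1000 strongest peaks of each (x axis), with all peaks ranked (left) and with peaks at tRNA genes left out before ranking (right). Points are pairs and black bars are means. With all peaks, pairs of FLAG-SNAP4 with another TF (orange) average 0.36, 0.42 and 0.39, below the 0.46, 0.49 and 0.45 of pairs between other TFs (blue), and on the right the means are close.

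Most of the strongest FLAG-SNAP4 peaks had a counterpart of some rank in the other libraries, and fewer did with more peaks taken. Of its 100 strongest peaks, 86 to 98% overlapped a peak of each other library, at a median rank there of 55.5 to 117. Of the 500 strongest, 75.8 to 93.6% did, and of the 1000 strongest, 64.1 to 86.7%. In the other direction, 98 to 100% of the 100 strongest peaks of the other libraries overlapped a FLAG-SNAP4 peak, at a median rank of 66 to 149. For 500 and 1000 peaks it was 92.4 to 99.4% and 82 to 93.4%. Both FLAG-SNAP4 libraries ranked 89 sites among their 100 strongest, of which 29 were among the 100 strongest of all 6 others.

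The sites that headed the FLAG-SNAP4 ranking headed the others as well. The strongest by mean rank were near LOC121175121 on chromosome 7 (17243074 to 17243490, Wm82 a4.v1), 6924 bp away, and near LOC100794164 on chromosome 15, 3062 bp away. At the first the fold enrichment was 23.8 and 24.2 in FLAG-SNAP4, 22.6 and 21.4 in FLAG-SNAP1, 20.7 and 18.4 in FLAG-SNAP2, and 17.6 and 13.8 in FLAG-SNAP3. Its rank in the other libraries was 1 to 24. At the second FLAG-SNAP4 had 25.05 and 23.6, within the 17.3 to 24.5 of the others for replicate 2. The next 3, near LOC100814124 (chromosome 3, 1300 bp), LOC100791672 (chromosome 6, 6055 bp) and the snoRNA gene LOC113002440 (chromosome 8, 33015 bp), had 21.4 to 23.3 in FLAG-SNAP4 and ranks of 1 to 10 in every other library. The annotation gives these loci no description, so no function is named for them.

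Sites that both FLAG-SNAP4 libraries ranked high and no other library did were more numerous than the same kind of site for the other TFs among the 100 strongest peaks. They numbered 24 of the 89 sites in both FLAG-SNAP4 lists, against 3 of 80 for FLAG-SNAP1, 2 of 74 for FLAG-SNAP2 and 10 of 64 for FLAG-SNAP3. With 500 peaks the counts were 44 of 345 for FLAG-SNAP4 and 8, 6 and 31 for the others. With 1000 peaks FLAG-SNAP3 had more, 69, and FLAG-SNAP4 had 51 of 588. When tRNA peaks were left out before ranking, FLAG-SNAP4 had 13 such sites of the 100 strongest and FLAG-SNAP3 12. With 500 peaks FLAG-SNAP4 then had 35, and FLAG-SNAP1, FLAG-SNAP2 and FLAG-SNAP3 had 31, 19 and 63. With 1000 peaks it was 54 against 87, 41 and 113. With the strongest 1.5% of each library in place of 100 peaks, FLAG-SNAP4 had 18 against 9, 2 and 3. With 7.5% it had 27 against 25, 23 and 10, and with 15% 40 against 69, 42 and 28. With 1 FLAG-SNAP4 library alone required to hold the site, the count with 500 peaks was 78 without replicate 1 and 127 without replicate 2, and with 1000 peaks 175 and 277. As the sites are chosen by rank, no test on rank or enrichment was run on them as a set. Those with a peak in every library also enter the fit over shared sites below, which is no separate support for them.

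The places of these sites differed between the limits. Of the 24 among the 100 strongest, 15 were more than 2 kb from a gene, 7 in a flank and 2 inside a gene, and none was at a tRNA gene. Far peaks made up 56 and 54% of all the 100 strongest FLAG-SNAP4 peaks. Peaks at tRNA genes made up 3 and 5% of them, so their absence from the 24 is near that share. Of the 44 among the 500 strongest, 17 were inside a gene, 8 in a flank, 4 between 1 and 2 kb from a gene and 15 farther away, and 2 were at tRNA genes. Of all the 500 strongest FLAG-SNAP4 peaks, 34.8 and 37.0% were inside a gene, 29.6 and 31.0% in a flank and 30.2 and 26.2% far. At tRNA genes were 34.4 and 44.0%. Of the 29 sites within 2 kb, 20 had a protein-coding gene as the nearest and 7 a pseudogene. Of all such FLAG-SNAP4 peaks within 2 kb, 347 and 366, it was 150 and 124 for protein-coding genes and 27 and 22 for pseudogenes. The other TFs had 2 of 3, 1 of 2 and 4 of 10 such sites of the 100 strongest at tRNA genes, for FLAG-SNAP1, FLAG-SNAP2 and FLAG-SNAP3. Of all their 100 strongest peaks, 29 to 41% were at tRNA genes.

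Whether these sites had a peak of lower rank in the other libraries depended on the limit. All 24 of the 100 strongest had a peak in FLAG-SNAP1 replicate 1, with a median rank of 318, and 15 had one in FLAG-SNAP3 replicate 2, with a median rank of 981. Of the 44, between 11 (FLAG-SNAP3 replicate 2) and 30 (FLAG-SNAP1 replicate 2) had a peak in a given other library. Of the 51 of the 1000 strongest, 10 to 24 had one, so that in each other library most of them had no peak. Among the 44, 2 had no peak of any rank in the other 6 libraries, near LOC106797595 and LOC100500207 (named after their values were seen), and among the 51 there were 12. A peak that was not called in the library with 3628 peaks may lie below its threshold, as the depth is not known from these files.

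The 10 best ranked of the 44 sites show the size of the difference. At the site 15284 bp from LOC100798031 on chromosome 14 (33731082 to 33731550, Wm82 a4.v1), the fold enrichment was 12.6 and 14.7 in FLAG-SNAP4, 7.96 and 7.63 in FLAG-SNAP1, 5.66 and 6.08 in FLAG-SNAP2 and 5.21 and 5.44 in FLAG-SNAP3. Inside LOC100795452 on chromosome 18 (43797918 to 43798252) FLAG-SNAP4 had 13.3 and 12.1, and the 5 other libraries with a peak had 5.93 to 7.85. At the site 37735 bp from LOC106796315 on chromosome 15, FLAG-SNAP4 had 12.1 and 13.1, and 3 of the other libraries had a peak, of 5.44 to 8.08. In each of these 3 the FLAG-SNAP4 values lay clear of all others, as the rule for choosing them makes likely.

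Of the remaining 7, those near LOC100818682 (chromosome 1, 5997 bp) and LOC100800305 (chromosome 13, 1825 bp) had a peak in only 1 other library, of 6.25 in FLAG-SNAP3 replicate 1 and 6.08 in FLAG-SNAP2 replicate 1. FLAG-SNAP4 had 9.72 and 12.3 at the first and 8.18 and 13.1 at the second, so its replicates differed from each other there. The pseudogenes LOC121173446 (chromosome 14, inside) and LOC121174794 (chromosome 1, 23 bp) had 9.85 and 10.6, and 9.67 and 9.45, in FLAG-SNAP4. The other libraries had 5.58 and 6.10 at the first, in 2 libraries, and 6.39 to 7.45 at the second, in all 6. The last 3 were near LOC100810201 (chromosome 3), LOC100805617 (chromosome 20) and inside LOC100799266 (chromosome 15), with 9.30 to 11.1 in FLAG-SNAP4 and 4.72 to 8.14 in the others.

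Sites ranked high by all 6 other libraries and by neither FLAG-SNAP4 library were tRNA genes in the main. Among all the strongest peaks of these 6 libraries, 29 to 41, 54.0 to 65.2 and 42.6 to 51.1% were at tRNA genes at the 3 limits. The sites numbered 8, 8 and 29, of which 7, 7 and 25 were at tRNA genes. In the top 500 the best ranked was TRNAK-CUU, for lysine, on chromosome 3 (the FLAG-SNAP1 peak spans 2517701 to 2518222). There the fold enrichment was 11.1 and 10.3 in FLAG-SNAP1, 8.02 and 9.10 in FLAG-SNAP2, 10.3 and 9.94 in FLAG-SNAP3 and 4.75 and 6.02 in FLAG-SNAP4. TRNAD-GUC (aspartate, chromosome 3), TRNAA-UGC (alanine, chromosome 7), TRNAV-AAC (valine, chromosome 10) and TRNAK-UUU (lysine, chromosome 18) had 3.65 to 6.64 in FLAG-SNAP4 and 7.51 to 11.7 in the others. The 1 site of the 8 that was not at a tRNA gene lay 21 bp from the protein-coding gene LOC100794304 on chromosome 13, with 3.94 and 5.998 in FLAG-SNAP4 and 7.65 to 10.4 elsewhere.

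**Figure D4:**
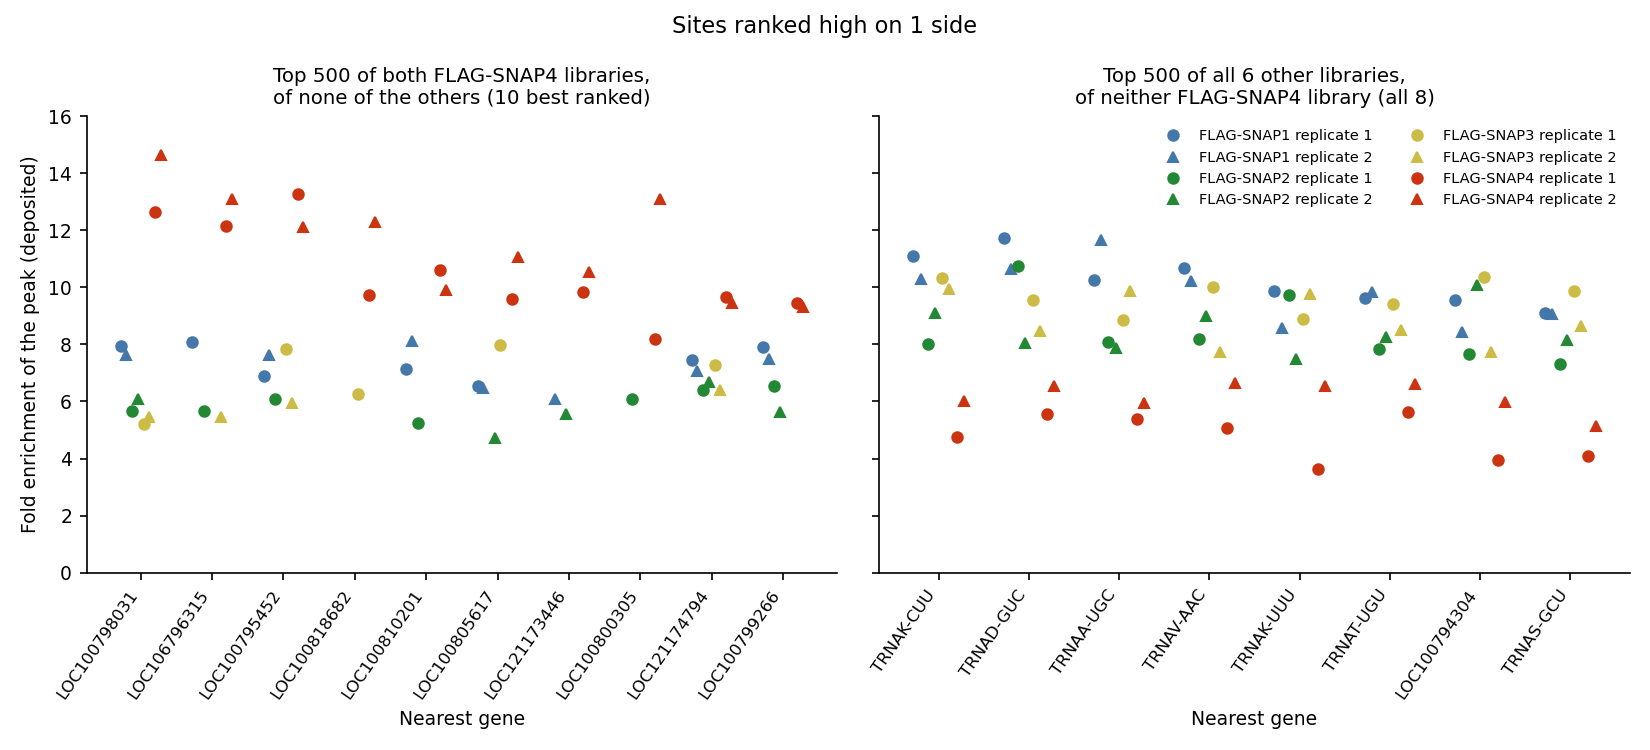
Deposited fold enrichment (y axis) in each library at the 10 best ranked sites of the top 500 of FLAG-SNAP4 alone (left) and at the 8 sites of the top 500 of all others alone (right), named by the nearest gene. Circles are replicate 1 and triangles replicate 2, and a missing point is a library with no peak. FLAG-SNAP4 (red) lies at 8.18 or more on the left and at 6.64 or less on the right.

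Sites with a peak in all 8 libraries allowed the size of the difference to be set against the spread of replicates. There were 1279 such sites, 494 at tRNA genes and 785 elsewhere. The median fold enrichment of the tRNA sites was 5.19 and 6.46 in FLAG-SNAP4 and 7.46 to 8.57 in the others, and that of the remaining sites was 4.54 and 4.91 against 4.95 to 5.77. Within a library, the tRNA sites stood above the rest by 0.19 and 0.40 (log2) in FLAG-SNAP4 and by 0.46 to 0.62 in the others. The difference of −0.27 (log2) between the group means had an exact permutation p = 0.0714 (two-sided), the smallest possible. As the low tRNA share was known beforehand, this p is no separate support for the gap. A constant factor per library leaves this gap as it is, whereas quantile normalization and division by the spread would change it. It was −0.16 without FLAG-SNAP4 replicate 1 and −0.37 without replicate 2 (exact permutation p = 0.286 in both). Without sites under the median enrichment it was −0.46, and on log2 −log10 q values −0.60.

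Site by site, limma compared FLAG-SNAP4 with the mean of the other 3 TFs on the log2 fold enrichment, each library centred on its median site. Its p-values measure the difference against the spread of replicates within a TF, and not against the spread among the other 3 TFs. At an adjusted p of 0.05, 122 sites were higher and 27 lower in FLAG-SNAP4, which is 9.54 and 2.11% of the 1279. Of the 494 tRNA sites, 2 were higher and 21 lower, with a median log2 difference of −0.12. Of the other 785, 120 were higher and 6 lower, with a median of 0.19. The median over all 1279 was 0.07. Among the sites more than 2 kb from genes, 49 of 192 were higher, and among those not at tRNA genes and inside a gene 38 of 362.

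The counts depend on the scaling. Without centring, where FLAG-SNAP4 stood 0.26 (log2) below the others at the median site, 30 sites were higher and 316 lower, and with quantile normalization 27 and 15. With each library centred on the sites that are not at tRNA genes, a choice made after the data had been seen, 55 were higher and 61 lower, of which 52 were at tRNA genes. Under all 5 scalings tried, 18 sites were higher and 13 lower. None of the 18 and 10 of the 13 were at tRNA genes. Without FLAG-SNAP4 replicate 1, 27 sites were higher and 7 lower.

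**Figure D5:**
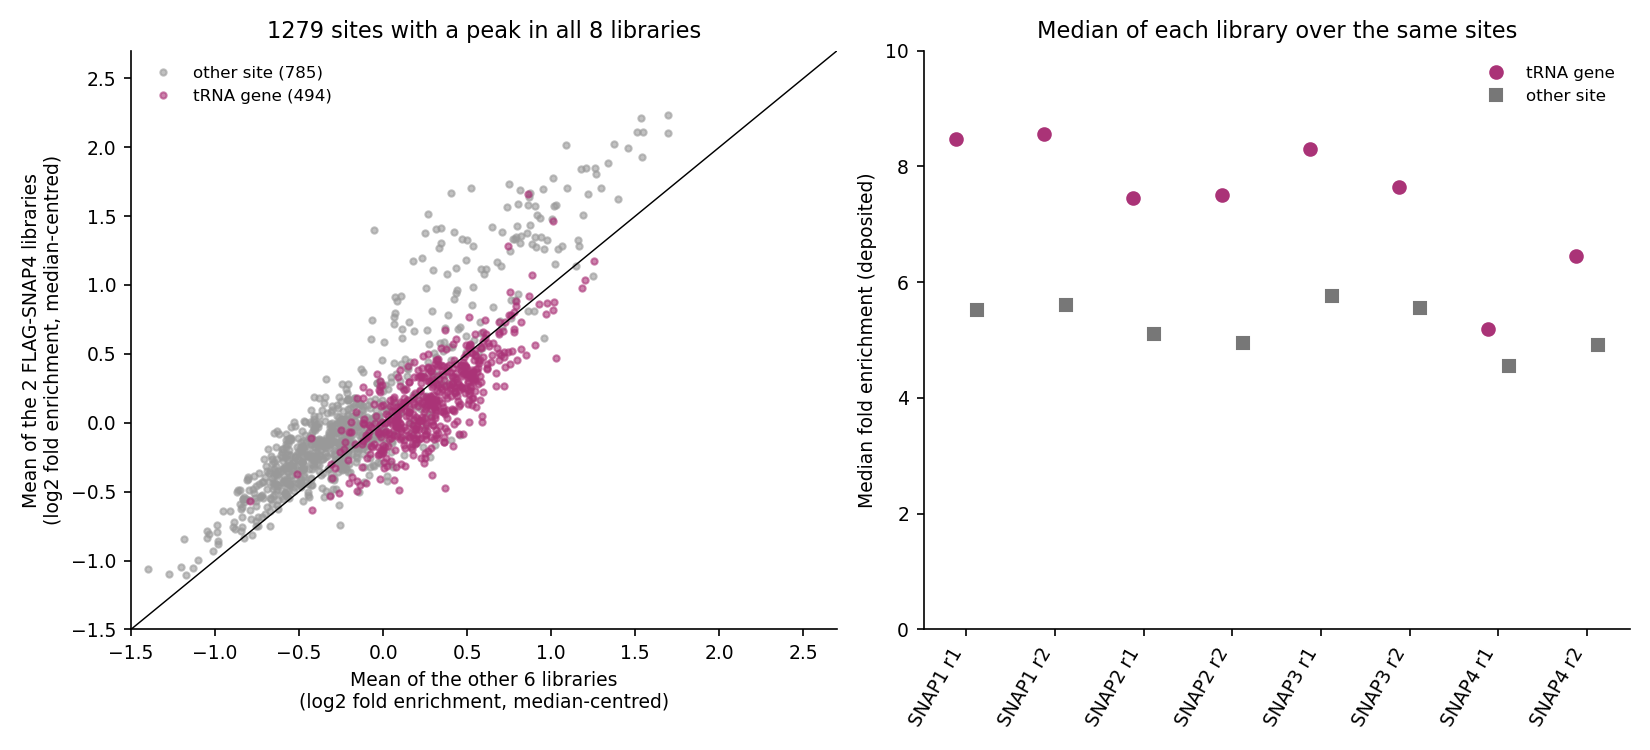
Left: for the 1279 sites with a peak in all 8 libraries, the mean log2 fold enrichment in FLAG-SNAP4 (y axis) and in the other 6 libraries (x axis), each library centred on its median site, with the line of equality. Most tRNA sites (purple) lie below the line and most other sites (grey) above it. Right: median deposited fold enrichment of the same sites in each library, for tRNA genes (circles) and other sites (squares).

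The sites highest in FLAG-SNAP4 in this fit lay away from tRNA genes. The first was that near LOC100798031, with a log2 difference of 1.45 ± 0.13 (SE, adjusted p = 1.5e-06, limma). It had been named above by its rank on the same fold values, so the fit is no separate support for it. The second, 50899 bp from LOC100813283 on chromosome 20, had 16.2 and 16.7 in FLAG-SNAP4 and 6.04 to 15.3 elsewhere, with the highest other value in FLAG-SNAP1 replicate 2 (log2 difference 1.26 ± 0.15, adjusted p = 4.3e-05, limma). The third lay 4 bp from the microRNA gene MIR5032 on chromosome 2 (37134976 to 37135353), with 14.7 and 14.9 in FLAG-SNAP4 and 5.44 to 10.5 in the others (1.25 ± 0.14, adjusted p = 4.3e-05, limma). All 3 were higher under each of the 5 scalings.

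Next came sites near the snoRNA genes LOC113000244 and LOC113000334 on chromosome 18, 26309 and 42928 bp away, with differences of 1.18 and 1.13. The remaining 5, with 0.96 to 1.09, were inside LOC121174152 (chromosome 19), LOC100790070 (chromosome 12) and LOC100804885 (chromosome 4), 732 bp from LOC100798757 (chromosome 8) and 7569 bp from LOC102669634 (chromosome 2). Of these 10, all but the site near LOC102669634, which had an adjusted p of 0.103 (limma) with quantile normalization, were higher under every scaling. Without FLAG-SNAP4 replicate 1 the site in LOC100804885 had an adjusted p of 0.0578 (limma).

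Of the 10 sites lowest in FLAG-SNAP4, 9 were at tRNA genes. The lowest was TRNAI-AAU, for isoleucine, on chromosome 13 (33325514 to 33325725), with 3.68 and 3.76 in FLAG-SNAP4 and 7.20 to 9.53 in the others (log2 difference −0.84 ± 0.14, adjusted p = 0.00074, limma). TRNAG-CCC, for glycine, on chromosome 2 had 3.78 and 4.18 against 7.07 to 9.81 (−0.67 ± 0.13, adjusted p = 0.0026, limma). TRNAS-GCU (serine) and TRNAE-CUC (glutamate), both on chromosome 13, had −0.59 and −0.59. At these 4 the FLAG-SNAP4 values lay below all others, and the calls held under all 5 scalings. Without FLAG-SNAP4 replicate 2 the call at TRNAE-CUC was lost (−0.42, adjusted p = 0.107, limma), and without replicate 1 that at TRNAS-GCU (−0.52, adjusted p = 0.0979, limma).

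At the next sites the call was also lost when 1 FLAG-SNAP4 library was left out. With fewer libraries a lost call does not show that the remaining replicate lacks the difference. TRNAT-AGU (threonine, chromosome 6) had 3.68 and 7.32 in the FLAG-SNAP4 replicates and 7.75 to 12.4 elsewhere, and TRNAA-AGC (alanine, chromosome 18) 5.27 and 9.69 against 11.6 to 15.5. Without FLAG-SNAP4 replicate 1 their adjusted p rose to 0.648 and 0.536 (limma). The calls at TRNAK-UUU (chromosome 18), LOC100794304 and TRNAK-CUU (chromosome 3) were lost without that replicate as well. With all libraries the call at TRNAK-CUU held under all 5 scalings. The last of the 10 lay inside LOC100305889 on chromosome 2, within 200 bp of a tRNA gene, with 4.60 and 3.88 against 6.63 to 9.11. Its call was lost with quantile normalization (adjusted p = 0.0732, limma) and without FLAG-SNAP4 replicate 2 (−0.31, adjusted p = 0.285, limma).

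By type of the nearest gene within 2 kb, tRNA genes made up most of the difference in the 1000 strongest peaks. Of the 709 tRNA genes, 270 and 385 were nearest to such a peak in FLAG-SNAP4 and 225 in both replicates, against 392 to 481 in the others. Pseudogenes went the other way, with 34 and 33 of 4482 in FLAG-SNAP4 and 18 to 24 in the others. Protein-coding genes, 46816 in all, gave 381 and 299 against 258 to 373, and 160 were shared by both FLAG-SNAP4 replicates. lncRNA genes gave 11 and 13 of 3328 against 12 to 18. No test was run on these counts.

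Gene families known in nodule and stress biology were found near the 1000 strongest peaks about as rarely as protein-coding genes at large. Of 50 genes with a NAC symbol, 0 and 1 were nearest to one of the 1000 strongest FLAG-SNAP4 peaks, and of 64 with a WRKY symbol 0 and 0. For the 20 AP2/ERF symbols, which include ethylene-responsive TFs, it was 1 and 0, for 39 heat shock factor genes 0 and 0, and for 27 leghemoglobin and nodulin genes, whose products carry oxygen in the nodule or mark its formation, 1 and 0. Together these 5 groups gave 2 and 1 of 200 genes, 1 and 0.5%, beside 0.81 and 0.64% of all protein-coding genes, so the counts are no result about the families. No gene of the 5 groups had such a peak in both replicates, and the other libraries had 0 to 2 per group. Of the 2 such genes in replicate 1, ERF6 had an enrichment of 5.29 and 4.42 in FLAG-SNAP4 and 4.45 to 7.20 elsewhere. NOD33, named for a nodulin, had 5.47 and 5.34 against 5.20 to 6.45. At HSF-16, a heat shock factor gene, 5 of the other 6 libraries had one of their 1000 strongest peaks, of up to 10.5 in FLAG-SNAP3 replicate 1, and FLAG-SNAP4 had 4.54 and 5.28. Symbols name few of the genes of each family, so these counts are lower limits for the families. NAC11 on chromosome 19, the gene of SNAP4 itself, had no peak within 2 kb in any of the 8 libraries.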

How the data were processed

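Root tissue with nodules was cross-linked, the chromatin sheared, recovered with FLAG antibody and tagged with Tn5 on the beads. Reads were trimmed by the authors (Trim Galore 0.6.6), placed on the Wm82 a4.v1 genome (Bowtie2 2.3.4.3), reduced to uniquely mapped pairs (SAMtools), and used for peak calling library by library (MACS2 2.2.7.1, q-value 0.05). The text read here names no control library and does not mention duplicates. The authors deposited for each peak a score, the fold enrichment as a ratio, the −log10 p-value and −log10 q-value, and the offset of the summit. The depth of single libraries is not known from these lists. Deposited fold values were ranked within each library, ties by −log10 q.

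Gene positions came from RefSeq, Glycine_max_v4.0 (58643 genes on 20 chromosomes), whose coordinates are not printed. That both share coordinates was checked: 553 and 627 FLAG-SNAP4 summits lay within 200 bp of a tRNA gene, and 3 and 5 after a shift of 20 kb. Peaks on scaffolds stayed in the totals as neither near nor far. No strand, gene description or sequence was used, so planned motif searches and 5′ and 3′ flanks were not run, families were taken by symbol, and histones and cysteine proteases were left out. Tests were exact permutation tests over the 8 libraries (two-sided) and limma 3.58.1 in R 4.3.3 on log2 fold values, with Benjamini-Hochberg adjustment. Sites named were the 10 best ranked of FLAG-SNAP4 alone, the 5 best ranked of the others alone, the 10 highest and 10 lowest of the limma fit, and the 5 strongest of FLAG-SNAP4. Members, lists and rules were chosen with earlier results of these data known. The low share of tRNA genes and the high share of far peaks among the 100 strongest were among those results. The limma fit and the peak placement were tested on simulated data. Python 3.11.15, pandas 2.3.3 and SciPy 1.17.1 were used, and alternatives covered ranking, limits, distances, overlap, scaling and single libraries.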

Additional observations from a re-analysis of the deposited data

How the results depend on the processing

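The share of tRNA peaks kept its direction under every alternative tried at each limit. Without peaks that overlap a peak in all 7 others, the groups overlapped with 500 and 1000 peaks (3.6 and 10.4% against 7.2 to 19.8% for 500). With the strongest 15% of each library in place of 1000 peaks they overlapped too, at 29.8 and 40.4% against 40.0 to 54.8%. Several other shares turned. Among peaks not at tRNA genes, a choice made after the data had been seen, the difference was −0.52 points for far peaks of the top 500, 2.40 and 0.54 for peaks inside genes of the top 500 and 1000, and 1.11 for flanks of the top 100. With protein-coding genes alone, peaks inside genes differed by 3.83, 3.70 and 2.50 points at the 3 limits, and ranked by −log10 q by 0.43 in the top 1000. The cause was not tested.

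Ranked by −log10 q, the mean overlap of FLAG-SNAP4 with other TFs was 0.368 with 500 peaks and that of its replicates 0.489 with 1000. Without tRNA peaks the mean overlap with other TFs was 0.482, 0.284 and 0.238, and that of the replicates 0.401 with 500 and 0.304 with 1000. Sites of FLAG-SNAP4 alone numbered 13 of the 100 strongest without tRNA peaks. With the strongest 7.5% of each library they numbered 27, against 25, 23 and 10 for FLAG-SNAP1, FLAG-SNAP2 and FLAG-SNAP3. Where no peak of any rank in the other 6 was allowed, they numbered 0, 2 and 12. Leaving out each library in turn gave 44 to 127 with 500 peaks and 54 to 277 with 1000, the highest without FLAG-SNAP4 replicate 2.

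In the limma fit, 30, 27, 54 and 55 sites were higher without centring, with quantile normalization, without tRNA sites and with centring on other sites. Lower were 316 without centring, 15 with quantile normalization, 8 without tRNA sites, 45 on log2 −log10 q values and 61 with centring on other sites. Leaving out each library in turn gave 27 to 131 higher and 7 to 32 lower, with 14 lower without FLAG-SNAP2 replicate 2 and 17 without FLAG-SNAP1 replicate 1. In these fits a TF with 1 library left was assumed to vary like the others.

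The replicate differences of the TFs over the shared sites correlated between −0.079 and 0.043. These values cannot show whether libraries of the same replicate number were handled together, and the labels name no batch. With the replicate block 118 sites were higher and 28 lower, and the tRNA share of the top 100 differed by −32.5 points. The files give no depth, so a missing peak in a library is not evidence of no binding.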
